A study of Mus musculus with 6 samples.

Results

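Collagen processing and cross-linking enzymes were followed in hearts of mice that lack caveolin-1. The set asked for was the 10 genes Lox, Loxl1, Loxl2, Serpinh1, P4ha1, P4ha2, Plod1, Plod2, Pcolce and Bmp1, and a member was every probe set (a group of short probes read out together) that the platform annotation gives exactly 1 of these symbols. That rule found 19 probe sets of 9 genes, out of 34945 probe sets of 18194 genes with 1 symbol. Loxl2 has only probe sets shared with a second symbol, so it was not analysed here. The data are total RNA of 6 mouse hearts on Affymetrix arrays, 1 array per heart. The groups are 3 Cav1KO hearts (Cav1 knockout) and 3 WT hearts (wild type), all of male mice aged 5 to 6 months and fasted for 6 hours. The labels give no strain, no part of the gene that was deleted and no batch, and do not say that each sample came from its own animal, so the spread behind each p-value is that of these 6 samples and may be partly technical. The tissue is whole heart, in which fewer cells of a type and less RNA per cell cannot be told apart.

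Collagen is made as procollagen and is modified before and after it leaves the cell. In the endoplasmic reticulum, prolyl 4-hydroxylases and lysyl hydroxylases add hydroxyl groups to the chains, and the chaperone HSP47 binds the folded triple helix. Outside the cell, a proteinase removes the C-terminal propeptide so that fibrils can form, and lysyl oxidases start the cross-links that make fibrils stiff and stable. In the heart, fibroblasts make most of the interstitial collagen, and the network they build holds muscle cells together and carries force.

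The table holds 1 linear intensity per probe set and array. Summed intensity ran from 12263600 to 12397300 in the Cav1KO arrays and from 11736700 to 12329500 in the WT arrays. WT replicate 1 had the lowest trimmed mean, 155 against 163 to 168 in the other 5 arrays. All intensities below are quantile normalised, and log2 fold changes are Cav1KO minus WT on the log2(intensity + 16) scale, which understates the change of low genes. Intensities of different probe sets are not compared with each other. The targeted gene Cav1 stood at 118, 101 and 101 in the Cav1KO hearts, against 3849, 3836 and 4216 in the WT hearts. Markers of cardiomyocytes were bright in every array, with a summed intensity of 126961 to 128709 in Cav1KO hearts and 126681 to 130009 in WT hearts over 8 genes.

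Loxl1, Serpinh1, Pcolce and Plod1 each rose at 1 or both of their probe sets, by 1.20-fold to 1.40-fold on the intensity scale. P4ha1, P4ha2 and Lox were higher in every Cav1KO heart than in any WT heart at their tested probe sets and did not pass the threshold. Plod2 and Bmp1, with log2 fold changes of 0.11 and -0.067 at their brightest probe sets, did not pass either. For Plod2 too every Cav1KO heart was above every WT heart at both probe sets, while the groups overlapped for Bmp1. A probe set was called when its Benjamini-Hochberg adjusted p in limma was under 0.05 over the 22519 brightest probe sets, and 2.36% of these were called higher and 0.822% lower in Cav1KO hearts (531 and 185 probe sets, or 573 and 41 when arrays were centred on their medians instead). Of the 19 member probe sets 16 were bright enough to be tested, 5 were called higher, 0 were called lower and 11 did not pass. An unadjusted p under 0.05 was reached by 11 of the 16, none of them lower, and by 20.04% of all tested probe sets. The 5 belong to 4 genes: Loxl1, Serpinh1, Plod1 and Pcolce, which holds 2 of them. For 12 of the 16 every Cav1KO heart lay above every WT heart, where 12.3% of all tested probe sets did so. The median log2 fold change was 0.32 over the 16 member probe sets and -0.0094 over all tested ones. The count depended on single hearts. Of the 16, 2 were called without Cav1KO replicate 1, 2 without Cav1KO replicate 2 and 8 without Cav1KO replicate 3. It was 3 without WT replicate 2 and 2 without WT replicate 3. In the same order, calls over all tested probe sets were 189, 227, 574, 744 and 298, against 716 with all hearts. Loxl1 and Serpinh1 are the members with a probe set that was called under all 15 alternative settings.

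**Figure D1:**
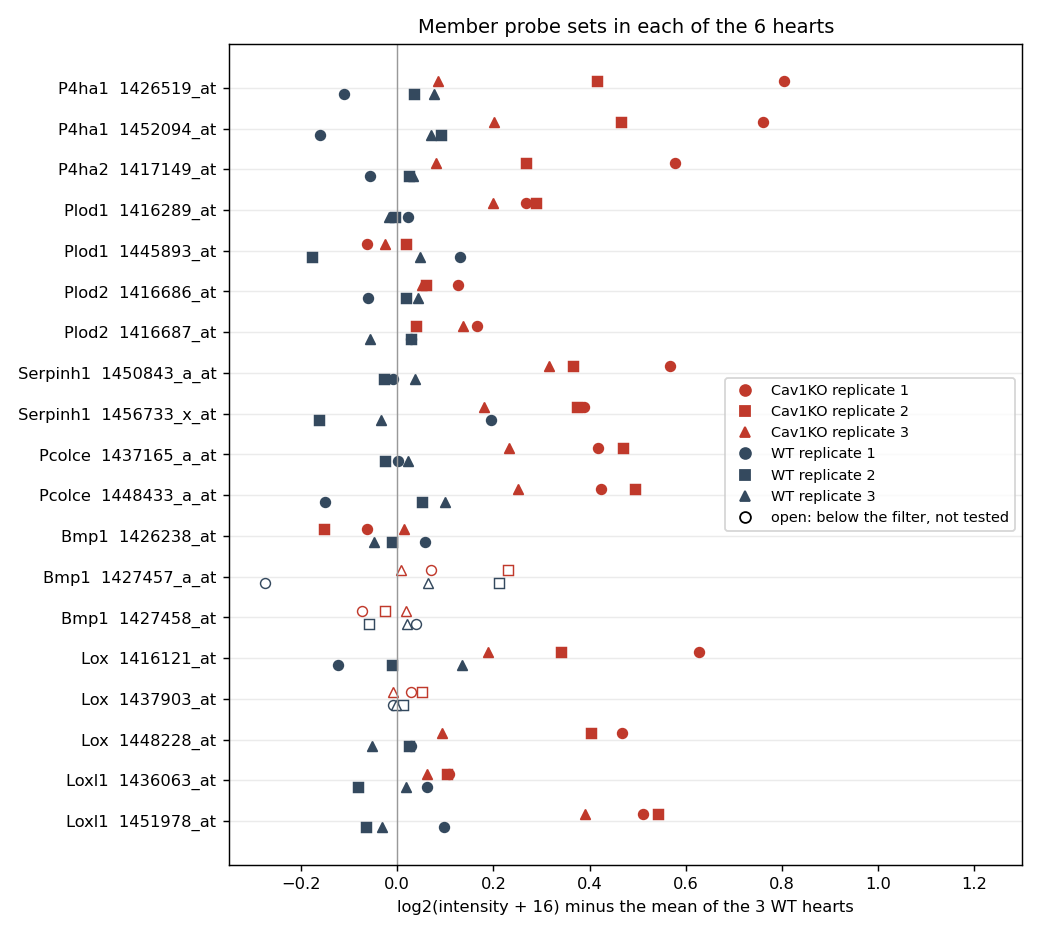
Each row is 1 of the 19 member probe sets, ordered from the hydroxylases at the top to the lysyl oxidases at the bottom, and each point is 1 heart (red for Cav1KO, dark blue for WT; the symbol gives the replicate). The horizontal axis is log2(intensity + 16) minus the mean of the 3 WT hearts. For P4ha1, P4ha2 and Lox the red points are spread far apart, while those of the brighter Loxl1 probe set lie close together.

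The promoters of the 5 members held by the RefSeq promoter table follow, as the letters in front of genes that were higher in every Cav1KO heart at their brightest probe set. Each run is the 250 bases before the annotated start, 5′ to 3′ on the gene's strand, in build GRCm38.p6. Serpinh1 lies on the minus strand at chr7:99353240-99353489, Pcolce on the minus strand at chr5:137611405-137611654, Plod1 on the minus strand at chr4:147936777-147937026, P4ha1 on the plus strand at chr10:59323046-59323295 and P4ha2 on the plus strand at chr11:54100674-54100923. Capitals mark ACGTG, a form of the core bound by hypoxia-inducible factors, and GGGCGG, the GC box bound by Sp1 family factors, each on either strand. The form GCGTG was neither marked nor counted. No marked match overlaps another.
Serpinh1: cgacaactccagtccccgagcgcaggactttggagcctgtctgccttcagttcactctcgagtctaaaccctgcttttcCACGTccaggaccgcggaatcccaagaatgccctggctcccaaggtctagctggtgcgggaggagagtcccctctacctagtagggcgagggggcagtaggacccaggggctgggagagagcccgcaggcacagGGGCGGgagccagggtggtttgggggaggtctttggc
Pcolce: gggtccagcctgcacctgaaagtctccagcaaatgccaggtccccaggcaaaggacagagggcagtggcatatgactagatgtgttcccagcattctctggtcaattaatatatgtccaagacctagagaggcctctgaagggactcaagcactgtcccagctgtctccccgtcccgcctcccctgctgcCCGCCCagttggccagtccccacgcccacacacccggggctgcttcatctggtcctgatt
Plod1: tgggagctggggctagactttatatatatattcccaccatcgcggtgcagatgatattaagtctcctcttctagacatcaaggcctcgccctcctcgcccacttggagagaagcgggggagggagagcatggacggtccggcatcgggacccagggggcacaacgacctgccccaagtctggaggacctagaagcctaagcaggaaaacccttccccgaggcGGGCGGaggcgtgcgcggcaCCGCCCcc
P4ha1: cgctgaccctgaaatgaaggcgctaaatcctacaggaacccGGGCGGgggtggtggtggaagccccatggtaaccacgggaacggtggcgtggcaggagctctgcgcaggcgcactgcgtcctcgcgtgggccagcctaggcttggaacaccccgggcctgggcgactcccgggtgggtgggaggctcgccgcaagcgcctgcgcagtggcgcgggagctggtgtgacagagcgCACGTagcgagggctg
P4ha2: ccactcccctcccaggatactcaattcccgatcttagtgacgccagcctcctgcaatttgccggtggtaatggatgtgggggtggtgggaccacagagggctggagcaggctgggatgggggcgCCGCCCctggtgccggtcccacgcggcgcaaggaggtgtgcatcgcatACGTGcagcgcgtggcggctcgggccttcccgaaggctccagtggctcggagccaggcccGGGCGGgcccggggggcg
ACGTG or its reverse complement occurs once in each of the runs of Serpinh1, P4ha1 and P4ha2 and in neither of the other two, and 16.6% of the 32851 promoter windows in the table hold it. GGGCGG on either strand occurs in all 5, with 2 matches in the runs of Plod1 and P4ha2, and 32.7% of the windows hold it. The runs of Pcolce and Plod1, which lack ACGTG, each hold GCGTG or its reverse complement, as do those of P4ha1 and P4ha2. These matches describe letters only.

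The prolyl 4-hydroxylases come first on the path. P4ha1 and P4ha2 encode catalytic alpha subunits of the enzyme that makes the hydroxyproline on which the stability of the triple helix depends. Both had higher means in Cav1KO hearts, and neither passed. The brighter P4ha1 probe set (1452094_at) had intensities of 465, 376 and 311 in the Cav1KO hearts, against 238, 286 and 282 in the WT hearts. The groups did not overlap, but Cav1KO replicate 3 lay close to the top WT heart. Its log2 fold change was 0.48 (SE 0.13, limma adjusted p = 0.0917). The other P4ha1 probe set (1426519_at) showed the same picture with 269, 202 and 157 in Cav1KO hearts, against 135, 151 and 156 in WT hearts, and a log2 fold change of 0.43 (SE 0.15, limma adjusted p = 0.170). Cav1KO replicate 3 and WT replicate 3 all but touch here. Without Cav1KO replicate 3 both P4ha1 probe sets passed, at log2 fold changes of 0.61 each and limma adjusted p of 0.0296 and 0.0430.

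P4ha2 (1417149_at), like P4ha1, was highest in Cav1KO replicate 1 and lowest of its group in Cav1KO replicate 3. It had 639, 513 and 448 in the Cav1KO hearts, against 407, 431 and 433 in the WT hearts, a log2 fold change of 0.31 (SE 0.11, limma adjusted p = 0.167). The groups are apart by the gap between 448 and 433 alone, and the Cav1KO SD of 97.0 is far wider than the WT SD of 14.8 (n = 3 each).

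Of the lysyl hydroxylase genes Plod1 passed and Plod2 did not, and the difference between them was not tested. Plod1 encodes lysyl hydroxylase 1, which acts on lysines within the helix, and its brighter probe set (1416289_at) rose. It stood at 614, 624 and 586 in the Cav1KO hearts, against 516, 506 and 501 in the WT hearts, a log2 fold change of 0.25 (SE 0.048, limma adjusted p = 0.0281). This is a small but even difference, 1.20-fold on the intensity scale, with every Cav1KO heart above every WT heart. The call is narrow: the limma adjusted p was 0.0577 with no variance trend and 0.0544 to 0.126 without Cav1KO replicate 1 or 2 or any 1 WT replicate. A dim second Plod1 probe set (1445893_at) did not follow, with 59.4, 63.8 and 61.4 in Cav1KO hearts, against 70.3, 53.7 and 65.4 in WT hearts (log2 fold change -0.024, limma adjusted p = 0.898). There the Cav1KO values lie inside the WT range.

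Plod2, lysyl hydroxylase 2, hydroxylates the telopeptide lysines at the chain ends and sets the kind of cross-link that forms. It did not pass at either probe set. The brighter one (1416687_at) had 368, 336 and 360.5 in the Cav1KO hearts, against 333, 333 and 313 in the WT hearts. Cav1KO replicate 2 lay only just above the 2 highest WT hearts. Its log2 fold change of 0.11 has a 95% interval of -0.017 to 0.25 (limma adjusted p = 0.305), and the other probe set (1416686_at), with 0.080, has one of -0.054 to 0.21 (limma adjusted p = 0.466). Larger rises of Plod2 lie outside these intervals, which hold for the quantile-normalised values only. On the deposited scale the log2 fold changes were 0.19 (1416687_at) and 0.15 (1416686_at). Centred on the array medians they were 0.20 and 0.17, and none of these passed.

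Serpinh1 encodes HSP47, the chaperone that binds procollagen in the endoplasmic reticulum, and it rose at 1 of its 2 probe sets. Its brighter probe set (1450843_a_at) gave 2678, 2326 and 2248 in the Cav1KO hearts, against 1791, 1769.6 and 1849 in the WT hearts. WT hearts differed little from each other (SD 40.9), and the lowest Cav1KO heart was well above all of them. The mean was 2417 ± 229 in Cav1KO hearts and 1803 ± 40.9 in WT hearts (SD, n = 3 each), 1.34-fold, with a log2 fold change of 0.42 (SE 0.062, limma adjusted p = 0.0104). The second probe set (1456733_x_at) had 1287, 1273 and 1112 in Cav1KO hearts, against 1124, 873 and 957 in WT hearts. Here WT replicate 1 lay above Cav1KO replicate 3, so the groups overlap. Its log2 fold change of 0.31 did not pass (SE 0.091, limma adjusted p = 0.109), but passed under 3 of 15 alternative settings, among them without WT replicate 1 (0.41, limma adjusted p = 0.0428). The suffix x marks Affymetrix probe sets whose probes may also match other transcripts.

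The removal of the C-terminal propeptide needs a proteinase and is sped up by an enhancer, and of these 2 members the enhancer passed and the proteinase did not. The difference between them was not tested. Pcolce encodes the procollagen C-endopeptidase enhancer, a secreted protein with no proteinase activity of its own, and both of its probe sets rose. The brighter (1437165_a_at) had 1424, 1476 and 1251 in the Cav1KO hearts, against 1064, 1043 and 1079 in the WT hearts, a log2 fold change of 0.37 (SE 0.061, limma adjusted p = 0.0151). The dimmer (1448433_a_at) had 464, 488 and 409.8 in Cav1KO hearts, against 306, 355 and 368 in WT hearts, a log2 fold change of 0.39 (SE 0.085, limma adjusted p = 0.0448). The probe sets are alike in size of change, and in both Cav1KO replicate 3 is the lowest of its group yet above every WT heart. The call of the dimmer one was lost under 10 of 15 alternative settings, at limma adjusted p of 0.0549 to 0.173. That of the brighter one was lost without Cav1KO replicate 1, Cav1KO replicate 2 or WT replicate 3, at 0.0882, 0.0655 and 0.0552.

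Bmp1 encodes the procollagen C-proteinase itself, which also activates the lysyl oxidase precursor, and it did not pass. Its 1 tested probe set (1426238_at) had 153, 142 and 162 in the Cav1KO hearts, against 167, 159 and 154 in the WT hearts. The groups overlap, with a log2 fold change of -0.067, a 95% interval of -0.22 to 0.086 and a limma adjusted p of 0.595. Centred on the array medians it stood at 0.015, so its sign depends on the scaling. The other 2 Bmp1 probe sets were below the filter, with means of 44.1 in Cav1KO hearts and 40.4 in WT hearts (1427457_a_at), and 16.5 in Cav1KO hearts and 17.2 in WT hearts (1427458_at).

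Last on the path are the lysyl oxidases, copper enzymes that oxidise lysine side chains of collagen and elastin. Loxl1, best known in mice for its part in elastic fibres, rose at 1 of its 2 probe sets, with the smallest adjusted p of the members. Its brighter probe set (1451978_at) gave 1043, 1066 and 958 in the Cav1KO hearts, against 779, 694 and 711 in the WT hearts. No Cav1KO heart came near the WT range. The mean was 1022 ± 56.6 in Cav1KO hearts and 728 ± 44.8 in WT hearts (SD, n = 3 each), 1.40-fold, with a log2 fold change of 0.48 (SE 0.060, limma adjusted p = 0.00469). A dimmer Loxl1 probe set (1436063_at) had 87.0, 86.7 and 83.7 in Cav1KO hearts, against 83.8, 74.3 and 80.8 in WT hearts, overlapping by a hair (log2 fold change 0.091, limma adjusted p = 0.465). Its 95% interval, -0.061 to 0.24, does not reach the estimate of the brighter one.

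Lox, the founding member of the family, had higher means in Cav1KO hearts and did not pass. One probe set (1416121_at) had 108, 85.7 and 75.6 in the Cav1KO hearts, against 57.8, 63.8 and 72.2 in the WT hearts, with a log2 fold change of 0.39 (SE 0.12, limma adjusted p = 0.117). Another (1448228_at) had 69.2, 65.5 and 49.8 in Cav1KO hearts, against 46.9, 46.7 and 43.5 in WT hearts, with 0.32 (SE 0.10, limma adjusted p = 0.128). In both, the groups do not overlap and Cav1KO replicate 3 is the heart nearest to WT. Without that heart the second passed, at 0.43 (limma adjusted p = 0.0366), and the first did not. The remaining Lox probe set (1437903_at) was far below the filter, at means of 9.02 in Cav1KO hearts and 8.61 in WT hearts.

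Whether the enzymes rose with the collagens was read from both lists side by side, with 1 probe set per gene, the brightest. Over all 11486 genes tested in this way 2.97% were called higher and 1.07% lower, and the median log2 fold change was -0.014. Of 9 member genes 4 rose and 5 did not pass, with a median of 0.37 and a range of -0.067 to 0.48. Of 17 tested collagen genes 10 rose and 7 did not pass, with a median of 0.44 and a range of -0.17 to 0.70. Every Cav1KO heart was above every WT heart for 8 of the 9 member genes and for 14 of the 17 collagens, where 13.5% of all genes met this. The difference between the lists was not tested, and both are read from the same 6 hearts. The collagen count was 5 without Cav1KO replicate 1, 4 without Cav1KO replicate 2, 6 without WT replicate 2 and 4 without WT replicate 3. Calls over all tested probe sets in these runs are given above.

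Among the collagens, Col5a2, a chain of type V collagen that helps start fibrils, had 690, 645 and 665 in the Cav1KO hearts, against 445, 389 and 385 in the WT hearts (log2 fold change 0.70, limma adjusted p = 0.00129). Its groups are far apart and the Cav1KO hearts close together. Col3a1, the chain of type III collagen, had 2841, 2706 and 3612 in Cav1KO hearts, against 2153, 1775 and 1872 in WT hearts (0.65, limma adjusted p = 0.0152). For Col1a1, a type I chain, the values were 620.1, 651 and 720.1 in Cav1KO hearts, against 505, 427 and 449 in WT hearts (0.51, limma adjusted p = 0.00962). Both are highest in Cav1KO replicate 3, the heart in which P4ha1, P4ha2, Lox and Serpinh1 are lowest of their group. Other called collagens are lowest of their group in Cav1KO replicate 3 too. In Cav1KO replicates 1, 2 and 3, Col4a1 had 3321, 3058 and 2566, Col4a2 2831, 2666 and 2239, and Col6a3 628, 617 and 592. Col1a2, the partner chain of type I, did not pass at its brightest probe set (0.33, limma adjusted p = 0.136), which is highest in that heart too, and rose at another (0.42, limma adjusted p = 0.00625). Also called were Col6a3 (0.47), Col18a1 (0.60), Col4a1 (0.65), Col6a2 (0.36), Col4a2 (0.44), Col14a1 (0.53) and Col6a1 (0.34). Col12a1 was the 1 tested collagen with a negative value, -0.17 (limma adjusted p = 0.251), with every Cav1KO heart below every WT heart.

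**Figure D2:**
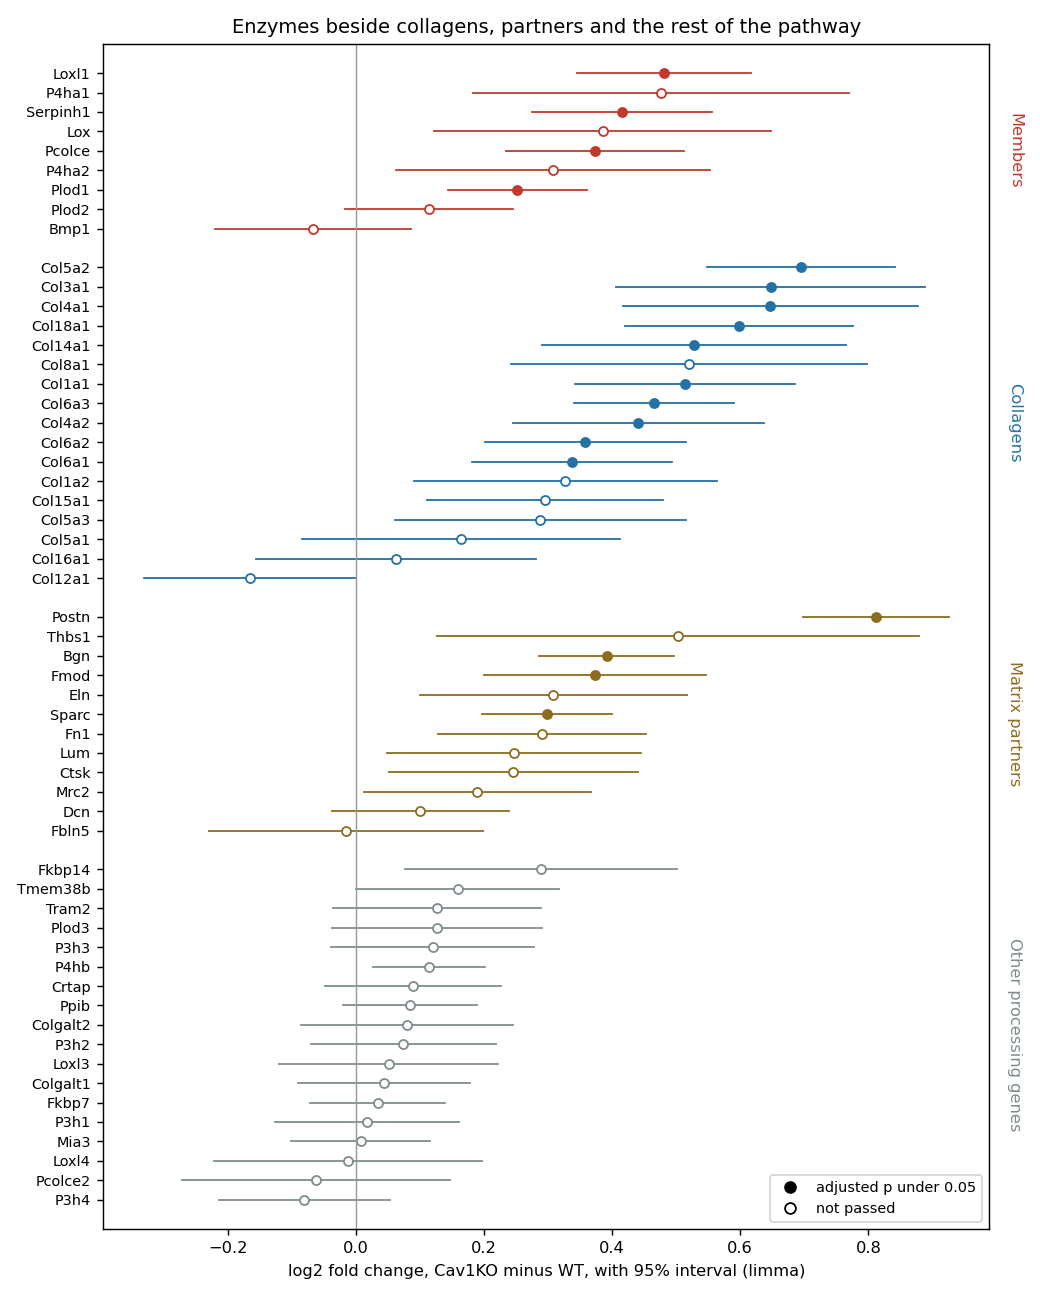
Points are log2 fold changes (Cav1KO minus WT) at each gene's brightest probe set and lines their 95% intervals from limma; filled points passed at an adjusted p under 0.05. Loxl1 at 0.48 and Serpinh1 at 0.42 lie within the range of the collagens, Bmp1 at -0.067 lies at the foot of the members, and no gene among the other processing genes passed.

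Heart by heart, most members were lowest of the Cav1KO group in Cav1KO replicate 3, and the collagens followed no common order. Of the 16 tested member probe sets 13 were lowest in Cav1KO replicate 3 within that group and 1 was highest there, where 33.2% of all tested probe sets were lowest there. At the brightest probe sets, 7 of 9 member genes were lowest in Cav1KO replicate 3, where 33.0% of all genes were. Of the 17 collagens 6 were lowest and 8 highest there, beside 33.0% and 35.9% of all genes. The median of the member genes relative to their WT means was 0.51, 0.34 and 0.20 on the log2 scale in Cav1KO replicates 1, 2 and 3, while that of the collagens was 0.33, 0.48 and 0.42. These are descriptions of 3 hearts, noticed after the values were seen. In the WT hearts the member medians were 0.0024, -0.010 and 0.022, and those of the collagens 0.13, -0.093 and -0.042.

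**Figure D3:**
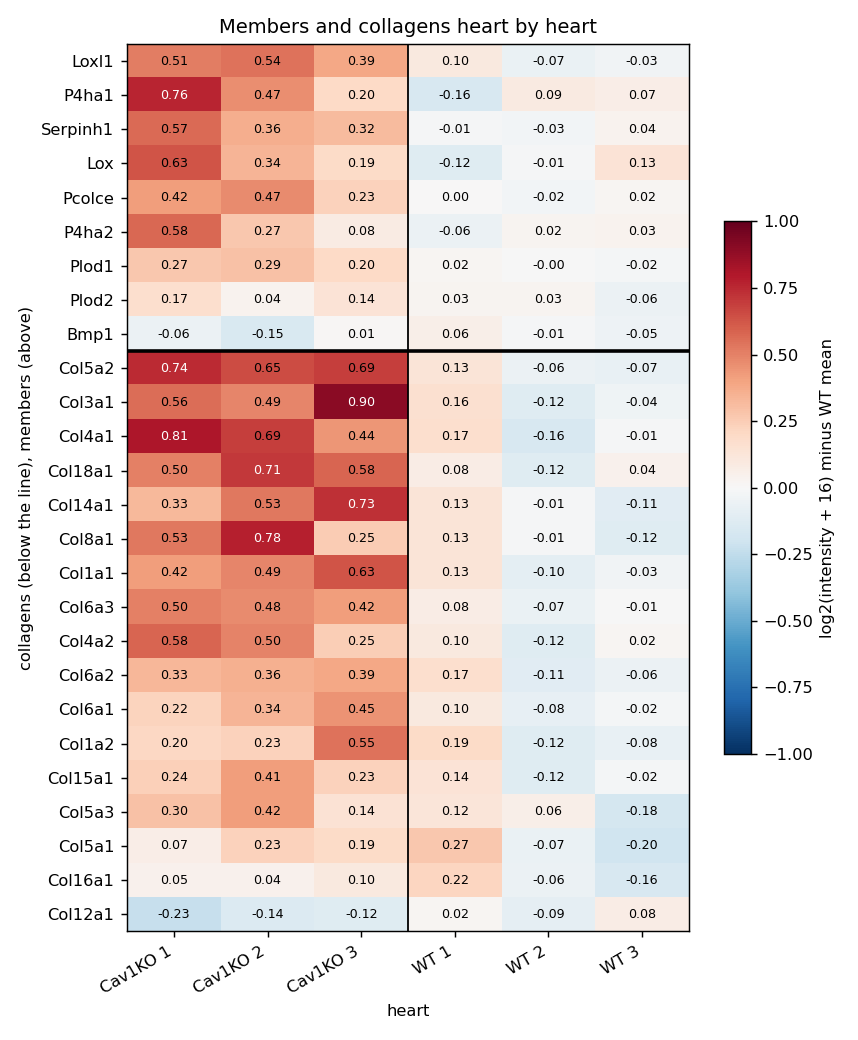
Each cell is log2(intensity + 16) at a gene's brightest probe set in 1 heart, minus the mean of the 3 WT hearts; members are above the black line, collagens below it, and Cav1KO hearts are left of WT hearts. P4ha1 and Lox are strongest in Cav1KO 1 and weakest of the group in Cav1KO 3, where Col3a1, Col1a1 and Col1a2 are strongest. Col4a1, Col4a2 and Col6a3 are strongest in Cav1KO 1 and weakest of the group in Cav1KO 3, as P4ha1 and Lox are.

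None of the tested genes from the rest of the processing pathway passed, where 2.97% of all genes were called higher and 1.07% lower, so a count of 0 in a list of this size is near the background. That list holds 25 genes, of which 18 were tested: other hydroxylases and lysyl oxidases, chaperones, isomerases, glycosyltransferases, an enhancer, and the genes Mia3, Tram2 and Tmem38b of the secretory path. By limma 0 of 18 were called in either direction, 3 had an unadjusted p under 0.05 (22.1% of all genes did), and 0 were called with array weights or without any 1 heart. Their median log2 fold change was 0.077, with a range of -0.081 to 0.29. Of the 18, 15 had a positive value, beside 45.8% of all genes. The summed intensity of the 18 was 7793 to 7946 in Cav1KO hearts and 7374 to 7499 in WT hearts. The 4 with the smallest p were Fkbp14, a prolyl isomerase of the endoplasmic reticulum, at 0.29 (SE 0.094, limma adjusted p = 0.141), P4hb, the beta subunit shared by the prolyl 4-hydroxylases, at 0.11 (limma adjusted p = 0.154), Tmem38b, an ion channel of the endoplasmic reticulum, at 0.16 (limma adjusted p = 0.247), and Ppib, a collagen-binding prolyl isomerase, at 0.084 (limma adjusted p = 0.339). P4hb stood at 1939, 1835 and 1880.02 in the Cav1KO hearts, against 1710.3, 1738 and 1772 in the WT hearts, so its groups did not overlap. Plod3 had 0.13, Loxl3 0.051, Loxl4 -0.012 and Pcolce2, the second enhancer gene, -0.062. Of the remaining 7 genes, P4ha3 and the propeptidase genes Adamts3, Tll1 and Tll2 were below the filter, and Fkbp10, Adamts2 and Adamts14 have no probe set with 1 symbol in the annotation used.

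Some matrix proteins that bind collagen or the enzymes rose as well. Of 12 tested genes of that list 4 rose and 8 did not pass, where 2.97% of all genes were called higher. Their median log2 fold change was 0.29. Postn, periostin, a matricellular protein reported to bind BMP1, had 1194, 1207 and 1172 in the Cav1KO hearts, against 715, 647 and 654 in the WT hearts (log2 fold change 0.81, limma adjusted p = 0.000153). Its Cav1KO hearts lie within a narrow band far above WT. The small proteoglycans Bgn (0.39) and Fmod (0.37), which bind fibrils, and the collagen-binding Sparc (0.30) rose too. Fn1, fibronectin, had 0.29 and did not pass (limma adjusted p = 0.0702). Without Cav1KO replicate 1 the count of this list was 2, and calls over all tested probe sets fell to 189.

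Markers of several cell types were measured beside these genes, at their brightest probe sets. Over all genes 2.97% were called higher and 1.07% lower, and 22.1% had an unadjusted limma p under 0.05. Such a p was reached by 4 of 12 fibroblast markers (Clec3b among them lower), 7 of 10 endothelial and 8 of 10 macrophage markers. Of 12 fibroblast markers outside the collagens 2 rose (Meox1 by 0.48 and Mfap5 by 0.38), Clec3b fell by 0.65 and 9 did not pass, and their summed intensity overlapped, at 13061.8 to 14532 in Cav1KO hearts and 13342 to 13808 in WT hearts. Gsn alone makes up 64.7% to 67.9% of that sum. Without Gsn and Dpt, the brightest of the list, the sums of the other 10 did not overlap. They were 2681 to 2775 in Cav1KO hearts and 2439 to 2637 in WT hearts. This split was made after the values were seen. The sum holds Mfap5, called higher, at 622, 644 and 516 in Cav1KO hearts, against 477, 445 and 433 in WT hearts. The gap therefore does not show a rise across the 10. Pdgfra, the receptor that marks cardiac fibroblasts, had 0.12 (limma adjusted p = 0.523) and Tcf21, a fibroblast transcription factor, 0.045 (limma adjusted p = 0.755). Of 8 smooth muscle and pericyte markers 0 passed by limma and 2 had an unadjusted p under 0.05, with a summed intensity of 18155 to 18342 in Cav1KO hearts and 17600.3 to 18142 in WT hearts. Of 10 endothelial markers 4 rose, Cldn5 by 0.72, Pecam1 by 0.71, Tek by 0.49 and Tie1 by 0.42, and 6 did not pass. Their sum was 6156 to 6993 in Cav1KO hearts and 5145 to 5430 in WT hearts. Of 10 macrophage markers 3 rose, among them Ptprc by 0.75, and 7 did not pass, with sums of 7841 to 8339 in Cav1KO hearts and 6321 to 7260.1 in WT hearts. All 10 had positive log2 fold changes. For 9 of them every Cav1KO heart was above every WT heart, beside 13.5% of all genes. Within the Cav1KO group the macrophage median relative to WT was 0.21, 0.37 and 0.27 in replicates 1, 2 and 3. In the same order the endothelial median was 0.33, 0.13 and 0.15, and the fibroblast median 0.046, -0.0089 and 0.16. Of 2 tested adipocyte markers 0 passed by limma and 1 had an unadjusted p under 0.05, Adipoq, with 65.1, 53.5 and 262 in Cav1KO hearts, against 225, 380.2 and 816 in WT hearts. Of the 8 cardiomyocyte markers 0 passed by limma, and 0 had an unadjusted p under 0.05. Most of these lie near the top of the array, where quantile normalisation gives hearts of equal rank the same value (Myl2 has 21888 or 22269.7 in every heart), so small differences could not be seen there. None of these markers was at 0, and their part in the rise of the enzymes was not tested.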

How the data were processed

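The series matrix holds 1 intensity per probe set and array, on a linear scale, as deposited. The submitters' processing notes name GCOS 1.4; summarisation, background correction and scaling are not given in the sources used here. Trimmed means differed by 8.42% between arrays, so the intensities were quantile normalised. Without 64 control probe sets, the upper 50% of the other 45037 by mean over all arrays were tested on the log2(intensity + 16) scale with lmFit and eBayes with a trend (limma 3.58.1, R 4.3.3), with no covariate and Benjamini-Hochberg adjustment over all 22519 tested. On simulated data with normal noise, 25.8% of 1.25-fold changes and 88.1% of 1.5-fold changes were recovered, and 5.65% of calls were false. Changes near 1.25-fold were therefore mostly missed there. The simulated noise was independent, with variances from limma's own fitted model, so a false share near the threshold follows from the setting. It held 200 changed probe sets, where the data gave 716 calls, and no difference between whole arrays. Recovery in the real data may therefore differ. Names come from the platform annotation, in which 932 probe sets have several symbols and 9160 none, and promoters from RefSeq, build GRCm38.p6, which held 5 of the 10 genes. The members, lists and tests were chosen with earlier results of these data known. Named are all member probe sets, and every called gene and the 4 of smallest p of the collagen, partner and other processing lists. Up to 3 markers of smallest p a list are named as well. Pdgfra, Tcf21, Cldn5, Gsn, Dpt, Myl2, Fn1, Col1a2, Col12a1, Plod3, Loxl3, Loxl4 and Pcolce2 were added with their values in view. With 3 arrays against 3, their number limits the precision. Alternatives were other scalings, pseudocounts, filters, variance models and probe set choices, array weights, and leaving out each heart.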

Additional observations from a re-analysis of the deposited data

How the results depend on the processing

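No paired analysis was possible because the titles of the Cav1KO hearts carry no replicate number shared with WT. The count of called member probe sets, 5, was 3 with no variance trend and ran from 2 to 8 when 1 heart was left out; that of collagen genes, 10, was 6 with no variance trend, 4 to 9 with 1 heart left out and up to 12 under other settings; that of partner genes, 4, was 2 to 4 with 1 heart left out, 6 on the deposited scale or centred on the array medians and 5 with array weights; and that of other processing genes was 0 under each alternative run. Over all tested probe sets, 716 calls became 414 with no variance trend, 1172 with array weights and 189 to 744 with 1 heart left out; 74.2% of the 716 were higher, against 577 higher and 58 lower on the deposited scale. Centred on the array medians 573 were higher and 41 lower, and Bmp1 (1426238_at) turned to 0.015 and the dim Plod1 probe set (1445893_at) to 0.0051, which ran from -0.11 to 0.042 with 1 heart left out and was above 0 without WT replicate 1. None of these values passed. The causes were not tested.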
